A study of Mus musculus with 6 samples.

Results

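The genes described here are Cd36, Fabp4, Fabp5, Lpl, Gpihbp1, Rbp7, Meox2, Tcf15 and Pparg, 9 of the 49548 genes in the count table, taken by symbol as genes that serve or set the uptake of fatty acids by the capillaries of the heart. The heart burns mainly fatty acids, and these have to cross the capillary wall before a cardiomyocyte can use them. Lipoprotein lipase, held on the lumenal face of the endothelium by GPIHBP1, releases fatty acids from triglyceride-rich lipoproteins, CD36 takes them up, and the fatty acid binding proteins FABP4 and FABP5 carry them through the cell. In endothelial cells of heart, muscle and fat, the transcription factor pair MEOX2 and TCF15 turns on genes of fatty acid uptake, among them Cd36. There the nuclear receptor PPARγ, which binds fatty acids as ligands, turns on Cd36, Fabp4, Lpl and Rbp7. RBP7 is a small retinol-binding protein of the same intracellular lipid-binding family as FABP4 and is known from the endothelium and from fat.

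The samples were native cardiac fibroblasts (CFs), the cells left after the heart of a 5-week-old C57BL/6J mouse was dissociated with enzymes, cleared of red cells by lysis and depleted of hematopoietic lineages on magnetic beads. The 3 WT samples were compared with 3 CharmeKO samples, from mice in which a poly(A) signal inserted in the Charme locus cuts short Charme, a long non-coding RNA of the heart. Both groups were described with the same age, strain, isolation and library kit, a directional poly(A) protocol. The methods do not say whether the WT and CharmeKO mice of these samples were littermates. The labels also list a growth medium although the methods describe these cells as freshly isolated. Xist stood above the Y-linked transcripts in 1 WT library and in 2 CharmeKO libraries, so the groups were not balanced in these transcripts. The methods give 3 WT and 3 CharmeKO mice as the source of the hearts, the labels tie no sample to an animal, and the p-values measure the spread between these samples.

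The libraries held 9595701 to 42101393 counts in WT and 23550718 to 31048606 in CharmeKO, so that a count of 0 allows up to 0.0713 to 0.313 CPM, counts relative to the depth of their library, a limit that covers counting error only. Reads of Charme itself numbered 26, 15 and 4 in WT replicates 1 to 3 and 7, 0 and 0 in CharmeKO replicates 1 to 3. The libraries carried fibroblast transcripts, with 10 marker genes that summed to 40110 to 43010 CPM in WT and 33240 to 41620 CPM in CharmeKO. Of these genes, Gsn alone had a mean of 20830 CPM in WT and 21220 CPM in CharmeKO. The libraries also carried endothelial transcripts. The 14 pan-endothelial markers were all detected in every group and summed to 9256 to 11360 CPM in WT and 9659 to 11370 CPM in CharmeKO. Kdr, which encodes the vascular surface protein CD309, stood at a mean of 854 CPM in WT and 1110 CPM in CharmeKO. These values are RNA, whereas the paper tested its native CFs by flow cytometry for absence of the CD309 protein. Despite the lysis of red cells, 5 erythroid genes summed to 26770 to 39210 CPM in WT and 24410 to 31740 CPM in CharmeKO. The libraries therefore held stromal, vascular and erythroid RNA together. In such bulk samples fewer cells of a type and less RNA per cell cannot be told apart.

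The windows of 250 bases before the transcript starts of Rbp7 and Cd36 are shown because these were the members with the largest differences between the groups. They are RefSeq sequences of GRCm38.p6, another build than that of the counts, and are written 5′ to 3′ along the gene, with positions counted back from the transcript start and the only match to AGGTCA or GTGGGAA in capitals. The Rbp7 window, on the minus strand at chr4:149454969-149455218, holds 58.4% G and C, and the capitals mark GTGGGAA, the core site of the Notch pathway factor RBPJ, starting at position -149. The Cd36 window, on the minus strand at chr5:17835897-17836146, holds 43.2% G and C, and the capitals mark AGGTCA, a nuclear receptor half-site, read on the opposite strand and starting at position -228.
Rbp7: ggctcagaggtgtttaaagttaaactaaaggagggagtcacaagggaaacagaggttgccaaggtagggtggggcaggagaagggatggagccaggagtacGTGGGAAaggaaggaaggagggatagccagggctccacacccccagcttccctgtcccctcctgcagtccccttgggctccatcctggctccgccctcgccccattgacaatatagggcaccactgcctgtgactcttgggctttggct
Cd36: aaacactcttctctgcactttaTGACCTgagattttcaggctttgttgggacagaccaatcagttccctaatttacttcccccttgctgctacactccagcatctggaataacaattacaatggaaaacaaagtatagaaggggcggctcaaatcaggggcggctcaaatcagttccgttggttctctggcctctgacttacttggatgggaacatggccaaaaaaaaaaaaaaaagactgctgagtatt

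Both strands of every window were searched for 5 motifs that were chosen with the results known. The direct repeat of AGGTCA with 1 base between the copies, to which PPAR and RXR bind as a pair, was in none of the 6 windows that RefSeq gave for Cd36, Rbp7, Meox2 and Pparg, and it is in 0.0335% of all 32851 windows of this length. The half-site AGGTCA, which is part of that repeat, is in 14% of all windows and GTGGGAA in 5.42%. Pparg, whose level did not pass the test, also held them, AGGTCA in 2 of its 3 windows and GTGGGAA in the remaining one. The E-box CANNTG, the general site of factors of the TCF15 family, is in 66.2% of all windows, among them that of Cd36 but not that of Rbp7. TAATTA, a homeodomain core, is in 4.84% of all windows and in neither of these. These matches describe letters in a window and are no evidence that a factor binds there.

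Across the 9 genes, Rbp7 alone passed the test, and it rose in CharmeKO to 4.3 times its WT level. All 9 were among the 15789 genes tested, for which 2 or more libraries had to hold 10 or more counts. The quasi-likelihood test of edgeR, at a Benjamini-Hochberg adjusted p under 0.05, called 1 of 9, higher in CharmeKO, against 0.83% of all tested genes called in either direction and 0.418% called higher. DESeq2 called 2 of 9, Rbp7 and Cd36, against 2.5% of all tested genes. At an unadjusted p under 0.05 edgeR gave 3 of 9, against 12.8%, and all 3 were higher in CharmeKO. Every CharmeKO library stood above every WT library for 4 of 9, namely Cd36, Fabp4, Rbp7 and Meox2, against 9.57% of all tested genes. The groups thus did not overlap for 4 of 9 members, against 18.2% of all tested genes, and none of the 9 had every CharmeKO library below every WT library, against 8.59%. The fitted difference was above 0 for 7 members and below 0 for 2, and their median log2 fold change was 0.15, beside 0.01 for all tested genes. Together the 9 genes took 0.474%, 0.531% and 0.423% of all counts in WT replicates 1 to 3, and 0.552%, 0.843% and 0.617% in CharmeKO replicates 1 to 3.

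**Figure D1:**
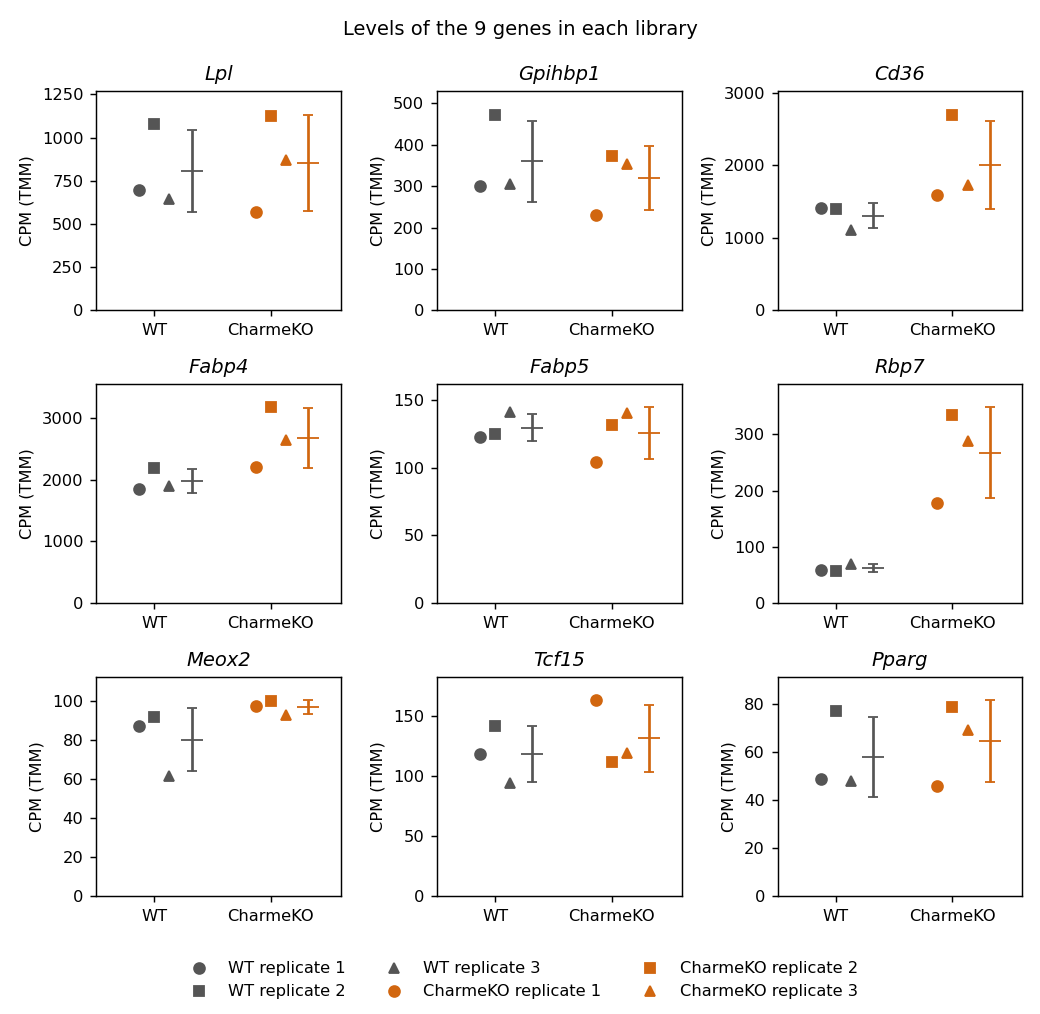
Levels of the 9 genes in CPM after TMM normalization, on linear axes from 0, with 1 point for each library, and beside them the mean with bars of 1 SD (n = 3). Rbp7 is the gene whose groups stand farthest apart, with WT at 57.3 to 69.9 CPM and CharmeKO at 178.2 to 335.1 CPM, and CharmeKO replicate 2 is the highest library for 6 of the 9 genes.

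**Figure D2:**
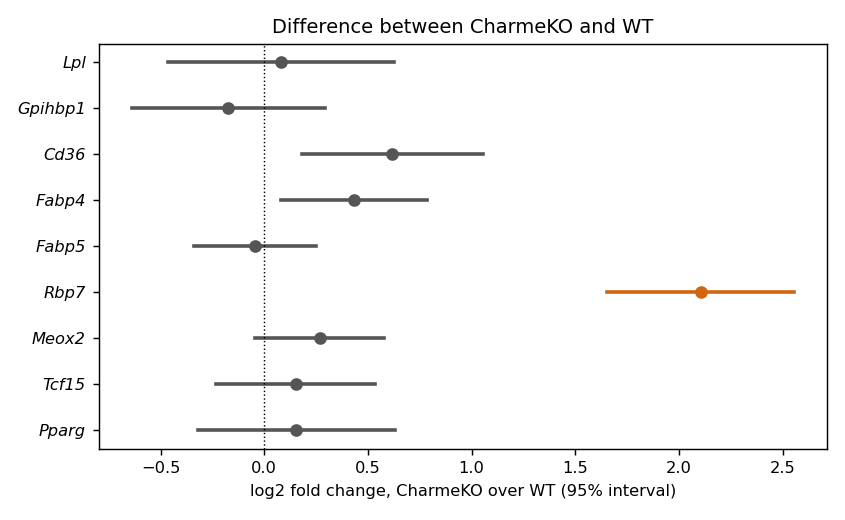
Log2 fold change of CharmeKO over WT for each gene, with the 95% interval from the spread between libraries and genes passing the test in orange. The intervals of Rbp7, Cd36 and Fabp4 lie above 0, and those of the other 6 genes include 0.

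Rbp7 had 59.7, 57.3 and 69.9 CPM in WT replicates 1 to 3 and 178.2, 335.1 and 288.2 CPM in CharmeKO replicates 1 to 3. The lowest CharmeKO library was thus well above the highest WT library, and the 3 WT libraries lay close together. The means were 62.3 ± 6.70 CPM in WT and 267.2 ± 80.5 CPM in CharmeKO (SD, n = 3, as for every ± below), resting on 650 to 2537 counts in WT and 5102 to 8762 counts in CharmeKO. The log2 fold change was 2.10 with a standard error of 0.21, a fold of 4.3 with a 95% interval of 3.14 to 5.88 (edgeR's quasi-likelihood test, adjusted p = 0.000361). DESeq2 gave an adjusted p of 2.69e-23. Without any 1 of the 6 libraries the log2 fold change stayed between 1.91 and 2.33, with edgeR adjusted p-values of 5.59e-05 to 0.00491. Rbp7 ranked 15 by p and 26 by fold among the 66 genes that edgeR called higher in CharmeKO. Counting Rbp7, 4 of those 66 had a mean level of at least that of Rbp7, 165 CPM, the others being Cyb5r3 and the heat shock genes Hspa1a and Hspa1b.

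Cd36, the membrane receptor that takes up long-chain fatty acids, had 1411, 1401 and 1110 CPM in WT and 1596, 2700 and 1726 CPM in CharmeKO. The groups did not overlap, but CharmeKO replicates 1 and 3 were close to the upper WT libraries while replicate 2 stood far above. The means were 1307 ± 171.2 CPM in WT and 2007 ± 603.8 CPM in CharmeKO, a log2 fold change of 0.62 (standard error 0.20, fold 1.54 with a 95% interval of 1.13 to 2.08). edgeR's adjusted p was 0.238 and that of DESeq2 0.042, so the call depended on the tool. Without CharmeKO replicate 2 the log2 fold change was 0.35, with an edgeR adjusted p of 0.654, the highest of any library left out.

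Fabp4, a cytosolic carrier of fatty acids that is abundant in capillary endothelium and in fat, had 1847, 2196 and 1892 CPM in WT and 2200, 3169 and 2646 CPM in CharmeKO. The groups nearly met, with WT replicate 2 and CharmeKO replicate 1 at almost the same level. The log2 fold change was 0.43 with a 95% interval of 0.08 to 0.78, and it passed neither test (adjusted p = 0.291 by edgeR and 0.108 by DESeq2). Its relative Fabp5 had 122.6, 124.8 and 140.9 CPM in WT and 103.9, 131.6 and 140.4 CPM in CharmeKO. Those ranges covered each other, and the log2 fold change of Fabp5 was -0.05 with a 95% interval of -0.34 to 0.25 (edgeR adjusted p = 0.92). The log2 ratio of the CPM of Fabp4 to that of Fabp5 within each library was 3.93 ± 0.20 in WT and 4.41 ± 0.18 in CharmeKO, higher in all 3 CharmeKO libraries. An exact two-sided permutation test gave p = 0.1, the smallest that 3 samples against 3 allow, and 0.167 after adjustment over 5 pairs of members that were chosen after their values were seen.

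Lpl, the lipase, and Gpihbp1, the endothelial protein that carries it to the capillary lumen, did not pass the test. Lpl had 695.6, 1081 and 644.6 CPM in WT and 567.3, 1123 and 871 CPM in CharmeKO, so that the lowest and the highest library were both CharmeKO. Its log2 fold change was 0.08 with a 95% interval of -0.46 to 0.63 (edgeR adjusted p = 0.922). Gpihbp1 had 301.4, 472.4 and 304.4 CPM in WT and 230.7, 373.4 and 352.2 CPM in CharmeKO, with a log2 fold change of -0.17 and a 95% interval of -0.64 to 0.29 (edgeR adjusted p = 0.794). In both genes replicate 2 was the highest library of its group and CharmeKO replicate 1 the lowest of all 6. Their log2 ratio, Lpl to Gpihbp1, was 1.21, 1.19 and 1.08 in WT and 1.30, 1.59 and 1.31 in CharmeKO. It varied less between libraries than either gene and did not overlap between the groups, with a difference of 0.24 (exact two-sided permutation test, p = 0.1, adjusted over the 5 pairs 0.167). Without CharmeKO replicate 2 this difference was 0.14.

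The transcription factors of the set differed by at most 0.27 on the log2 scale, and none of the 3 passed the test. Meox2, a homeobox factor, had 87.04, 91.8 and 61.8 CPM in WT and 97.5, 100.2 and 93.0 CPM in CharmeKO. The CharmeKO libraries agreed within a coefficient of variation of 3.73% and stood above WT, the lowest of them only just above the highest WT library, and the log2 fold change was 0.27 with a 95% interval of -0.05 to 0.58 (edgeR adjusted p = 0.467). Without WT replicate 3, the lowest library of Meox2, the log2 fold change was 0.12. Tcf15, its basic helix-loop-helix partner, had 118.3, 141 and 94.4 CPM in WT and 162.9, 111.8 and 118.8 CPM in CharmeKO, which overlapped (log2 fold change 0.15, 95% interval -0.23 to 0.53, edgeR adjusted p = 0.783). Pparg had 48.5, 76.8 and 47.8 CPM in WT and 45.6, 78.7 and 69.0 CPM in CharmeKO. Its log2 fold change was 0.15 with a 95% interval of -0.32 to 0.63 (edgeR adjusted p = 0.824), and replicate 2 was again the highest library of both groups. The log2 ratio of Meox2 to Tcf15 was -0.56 ± 0.10 in WT and -0.42 ± 0.30 in CharmeKO (exact two-sided permutation test, p = 0.6), and without CharmeKO replicate 2 the difference of 0.14 was 0.01.

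The members did not vary alike between libraries. The coefficient of variation in WT ran from 7.74% for Fabp5 to 29.5% for Lpl, and Lpl, Gpihbp1 and Pparg were above 24% in both groups. Rbp7 and Cd36 were steadier in WT, at 10.8% and 13.1%, than in CharmeKO, where both reached 30.1%. CharmeKO replicate 2 was the highest of the 6 libraries for 6 members and CharmeKO replicate 1 the lowest for 4, while within WT replicate 2 was the highest for 6. The other genes with the most similar course over the 6 libraries were sought among 8914 tested genes of at least 10 CPM, by the root-mean-square difference of the deviations of log2(CPM + 1) from each gene's mean. Pparg lay nearest to Cdkn1a, a cell cycle inhibitor, at 0.019, and Lpl lay nearest to Pparg, at 0.084. Gpihbp1 was nearest to Snrk, a kinase, at 0.041, and Cd36 to Adgrl4, an adhesion receptor of endothelial cells, at 0.094. The nearest of Fabp4 was Inka2 at 0.07, of Fabp5 Rufy3 at 0.05, of Meox2 E2f5 at 0.04 and of Tcf15 Zfp110 at 0.05. The nearest of Rbp7, Zfp979, differed by 0.35 and the next, Gm28437 and Gm29216, by 0.37 and 0.41. This distance grows with the size of a gene's own deviations. Their root mean square was 1.06 for Rbp7 and ran from 0.15 (Fabp5) to 0.39 (Cd36) for the other members. The larger distance of Rbp7 is therefore not by itself a sign of an unusual course. A distance scaled to these deviations was not computed, and whether the course of Rbp7 is unusual was not tested.

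Levels per length, in CPM per kb of exon, put Fabp4 and Cd36 at the head of the set. Over the 6 libraries the order was Fabp4, Cd36, Rbp7, Gpihbp1, Tcf15, Lpl, Meox2, Fabp5 and Pparg. The length was that of all annotated exons together, 4489 bases for Fabp4, 3567 for Fabp5 and 10478 for Lpl. Which transcripts the reads came from was not tested, and a gene read mainly from a shorter transcript would stand higher in this order. Fabp4 stood at 440.8 ± 42.3 CPM per kb in WT and 595.1 ± 108.0 in CharmeKO, and ranked 53 among all tested genes per length, while Pparg stood at 19.5 ± 5.60 and 21.8 ± 5.76 and ranked 2123. Most neighbours in this order overlapped in their ranges over the 6 libraries, the exceptions being Lpl above Meox2 and Fabp5 above Pparg. Rbp7 changed its place with the genotype, at 86.8 ± 9.33 CPM per kb in WT, below the 140.7 ± 38.3 of Gpihbp1, and at 372.1 ± 112.1 in CharmeKO, above the 124.8 ± 30.1 of Gpihbp1. Against Gpihbp1 it was higher in 3 of 6 libraries. With the longest transcript as the length in place of all exons, 5 of 9 genes kept their place.

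To set the members beside the amount of endothelial RNA, each was expressed as log2(CPM + 1) minus the mean of the 14 pan-endothelial markers of the same library. That mean was 8.99, 9.22 and 8.92 in WT and 9.01, 9.24 and 9.12 in CharmeKO, a difference of 0.08. On this scale Rbp7 was at -3.06 ± 0.29 in WT and -1.10 ± 0.37 in CharmeKO, a difference of 1.96. Cd36 was at 1.31 ± 0.15 and 1.81 ± 0.31, and Fabp4 at 1.91 ± 0.06 and 2.25 ± 0.15, differences of 0.51 and 0.34. In these 3 genes every CharmeKO library stood above every WT library, and the exact two-sided permutation test gave p = 0.1 for each, 0.3 after adjustment over the 9 genes. The share of all tested genes that stand so on this scale was not computed. In CPM it was 9.57%. With the median of the markers in place of their mean, Fabp4 overlapped between the groups, with a difference of 0.26, while Cd36 and Rbp7 still did not, at 0.42 and 1.87. Without CharmeKO replicate 2 the difference of Cd36 was 0.33. Meox2, whose groups did not overlap in CPM, did overlap here, with a difference of 0.21 (exact permutation p = 0.3). The differences of Lpl, Tcf15 and Pparg lay between -0.02 and 0.08, and those of Fabp5 and Gpihbp1 were -0.14 and -0.25, with exact permutation p-values of 0.5 to 1. Within the library, Rbp7 was 1.64 higher relative to Fabp4 in CharmeKO, at -4.99 ± 0.25 in WT and -3.36 ± 0.24 in CharmeKO (exact two-sided permutation test, p = 0.1, adjusted over the 5 pairs 0.167).

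**Figure D3:**
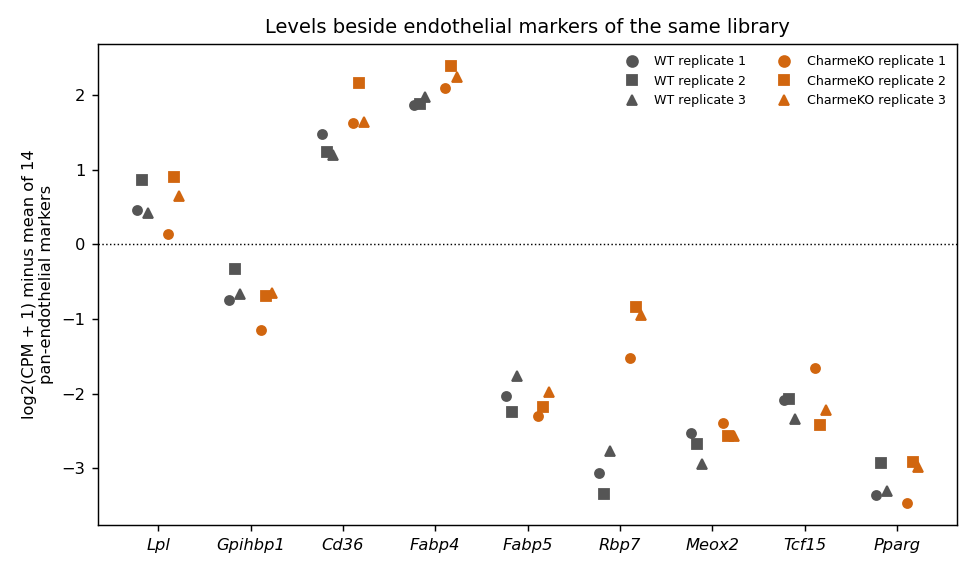
Each gene's log2(CPM + 1) minus the mean of 14 pan-endothelial markers in the same library, with 1 point for each library, gray for WT and orange for CharmeKO. The CharmeKO points lie above all WT points for Cd36, Fabp4 and Rbp7, and the groups overlap for the other 6 genes.

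Transcripts of other cell types moved with the genotype to different degrees. The 8 capillary markers, among them Car4, Aqp1 and Rgcc, summed to 5569 to 9142 CPM in WT and 6446 to 9040 CPM in CharmeKO, and Car4, a defining marker of heart capillaries, differed by -0.02 on the log2 scale (edgeR adjusted p = 0.987). Among the other capillary markers, Kdr and Cxcl12 had every CharmeKO library above every WT library, at log2 fold changes of 0.38 and 0.36 (edgeR adjusted p = 0.298 and 0.302), and the sum of the list differed by 0.20 on the log2 scale. These values are close to the 0.43 of Fabp4, and their part in its difference was not tested. Beside the counts of called markers that follow, edgeR called 0.83% of all tested genes. Of the 8 arterial markers 1 passed edgeR's test, Stmn2, which rose by 0.79 on the log2 scale (adjusted p = 0.0135). Of the 8 venous and endocardial markers 1 passed, Plvap, a protein of fenestrated endothelium, which fell by 0.92 on the log2 scale (adjusted p = 0.00791). In this list 6 markers were lower and 2 higher in CharmeKO. The list summed to 882.5 to 1030 CPM in WT and 771.1 to 821.3 CPM in CharmeKO. Every CharmeKO library was below every WT library for Vwf (log2 fold change -0.49, edgeR adjusted p = 0.159) and above for Vcam1 (0.52, edgeR adjusted p = 0.186). The call of Stmn2 was lost without WT replicate 1 or 3 or without CharmeKO replicate 1 or 2 (edgeR adjusted p 0.0665 to 0.0763), and that of Plvap without CharmeKO replicate 1 or 2 (edgeR adjusted p 0.0512 and 0.0598). All 10 cardiomyocyte markers were higher in CharmeKO, 3 of them called by edgeR, Myh6, Tnni3 and Mb, and their sum was 364 to 463.1 CPM in WT and 538.5 to 807.7 CPM in CharmeKO. Cardiomyocytes also use Cd36, Lpl and Fabp3, and the part of their RNA in the levels of these genes was not tested. The sum of the cardiomyocyte markers, like Rbp7 and Cd36, was higher in every CharmeKO library than in every WT library. Within CharmeKO this sum was highest in replicate 1, where Rbp7 and Cd36 were lowest, and a relation between them was not tested. None of the 8 adipocyte markers reached the minimum for testing, with 54 counts in all over 6 libraries, 0 counts throughout for Cidec and Lep, and 4, 1 and 1 counts of Adipoq in WT and 2, 0 and 10 in CharmeKO. Of 10 dissociation response genes 2 were called by edgeR, Hspa1a and Hspa1b, both higher in CharmeKO, while the list summed to 28830 to 42230 CPM in WT and 33730 to 37720 CPM in CharmeKO, and their part in the result for Rbp7 was not tested.

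The wider machinery of lipid handling held 110 further genes in 7 lists, of which 94 were tested. Of these 94, edgeR called 1, Rbpj, which was lower in CharmeKO, against 0.83% of all tested genes, 16 had an unadjusted p under 0.05, against 12.8%, and DESeq2 called 6, against 2.5%. The median log2 fold change was -0.01. The values were spread to both sides, with 46 genes higher and 48 lower.

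Rbpj encodes the DNA-binding factor of the Notch pathway, a signal known to keep endothelial fatty acid transport going in the heart. It had 55.7, 43.9 and 47.8 CPM in WT and 22.6, 19.2 and 25.3 CPM in CharmeKO, so that the highest CharmeKO library was well below the lowest WT library. It fell by 1.14 on the log2 scale (standard error 0.14, edgeR's quasi-likelihood test, adjusted p = 0.002) and kept its call without any 1 library, with adjusted p-values of 0.00098 to 0.0203. Other genes of this list of 15 did not pass edgeR's test, among them the receptor Notch1 (-0.19), the Notch ligand Dll4 (-0.09), the VEGF receptor Flt1 (0.33) and the shear-stress factors Klf2 (0.02) and Klf4 (0.01), all as log2 fold changes.

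Among 14 tested genes of lipoprotein lipolysis outside the members, 12 had values below 0 and 2 above, while 51.2% of all tested genes were above 0, and the median log2 fold change was -0.27. Of the 12, Sel1l and Vldlr were near 0, at -0.01 and -0.02, where another scaling could turn the sign. edgeR called 0 of them, 5 of 14 had an unadjusted p under 0.05, against 12.8% of all tested genes, and DESeq2 called 2, against 2.5%. These 2 were Hspg2, the heparan sulfate proteoglycan perlecan, at 15060 ± 2224 CPM in WT and 9863 ± 2660 in CharmeKO (log2 fold change -0.61, adjusted p 0.242 by edgeR and 0.0293 by DESeq2), and Lrp1, a receptor for lipoprotein remnants, at 4571 ± 411.1 and 3151 ± 357.5 CPM (-0.54, adjusted p 0.157 by edgeR and 0.00283 by DESeq2). Pcsk6, a protease, was at 1317 ± 110.1 and 1264 ± 77.9 CPM (-0.06, edgeR adjusted p 0.89).

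Of 14 tested genes of fatty acid transport, binding and activation, 11 had values above 0, with a median log2 fold change of 0.11. edgeR and DESeq2 both called 0 of them, and 2 had an unadjusted p under 0.05, against 12.8% of all tested genes. The caveolae genes Cav1 and Cav2 had log2 fold changes of 0.11 and 0.31, and the acyl-CoA synthetase gene Acsl5 0.21 (edgeR adjusted p 0.778, 0.317 and 0.445). In lipid storage and mobilisation 11 of 16 genes had values above 0, with a median log2 fold change of 0.10. Again edgeR called 0, 1 had an unadjusted p under 0.05, against the same 12.8%, and DESeq2 called that gene, against 2.5% of all tested genes. It was G0s2, an inhibitor of triglyceride lipase (log2 fold change 0.50, adjusted p 0.134 by edgeR and 0.0464 by DESeq2). The lipases Mgll, Pnpla2 and Lipe had log2 fold changes of 0.28, -0.23 and -0.02.

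The PPAR receptors, partners and regulators were 17 tested genes, 5 with values above 0 and 12 below, with a median log2 fold change of -0.07. edgeR called 0, 2 had an unadjusted p under 0.05, against 12.8% of all tested genes, and DESeq2 called 1, against 2.5%. Cebpd and Cebpb, factors that act with PPARγ in fat, had log2 fold changes of 0.24 and -0.44. The 17 PPAR target genes outside the members had 8 values above 0 and 9 below, with a median of -0.11. edgeR called 0 of these, and 4 had an unadjusted p under 0.05, against the same 12.8%. DESeq2 called 1, against the same 2.5%, the carnitine carrier Slc25a20 (-0.60, adjusted p 0.134 by edgeR and 0.0484 by DESeq2). The most expressed of the PPAR targets were Ucp2, Aqp7 and Hadha, with log2 fold changes of -0.19, 0.38 and 0.07. Angptl4, a target whose protein inhibits lipoprotein lipase, had a log2 fold change of -0.28 (edgeR adjusted p 0.724).

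In the intracellular lipid-binding protein family, to which Fabp4, Fabp5 and Rbp7 belong, 5 of 13 other members were tested. edgeR and DESeq2 called 0 of the 5, and 1 had an unadjusted p under 0.05, against 12.8% of all tested genes. This was Fabp3, the muscle form, at 13.9 ± 2.69 CPM in WT and 21.9 ± 4.59 CPM in CharmeKO (log2 fold change 0.63, edgeR adjusted p 0.195).

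**Figure D4:**
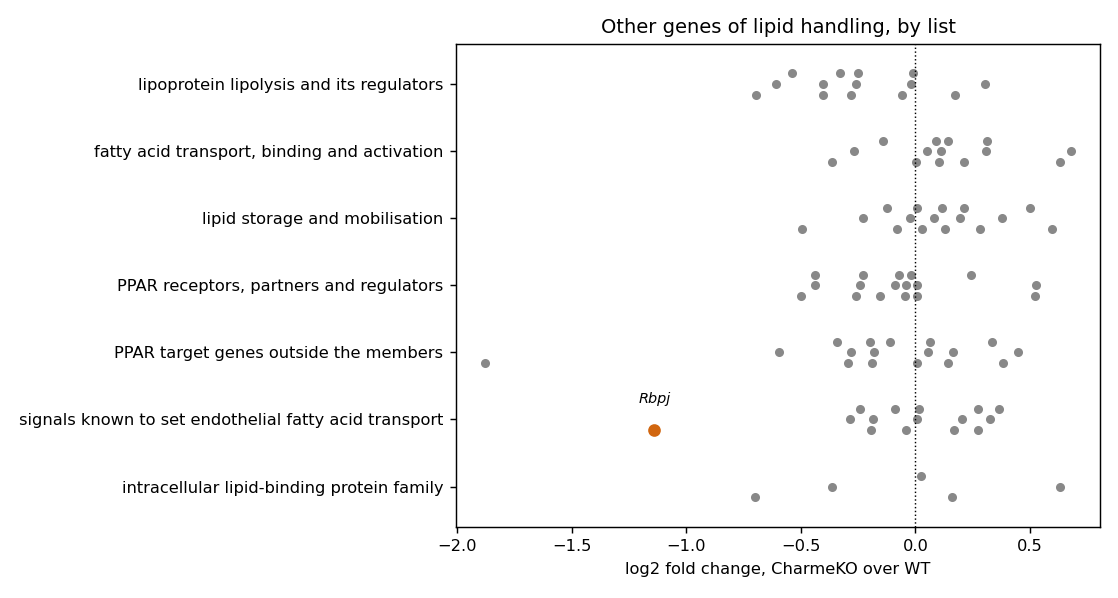
Log2 fold change of CharmeKO over WT for the tested genes of 7 lists of lipid handling, without the 9 members, with 1 point for each gene and list and genes passing edgeR's test in orange. Rbpj, at -1.14, is the only gene passing, and the points of each list lie on both sides of 0.

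The neighbours of Rbp7 on its chromosome were looked at after its value was seen. Among the 50 tested genes on each side of Rbp7 on chromosome 4, in the gene order of GENCODE release M21, 8 of 100 were called by edgeR, against 0.83% of all tested genes and 2.24% of the 984 tested on this chromosome. All 8 lay among the 50 genes before Rbp7 in the order of the chromosome, 5 of them higher and 3 lower in CharmeKO. The windows around the other 8 members held 0 or 1 called genes each. Ube4b, the gene next to Rbp7, had 107.6 ± 5.33 CPM in WT and 74.8 ± 1.87 CPM in CharmeKO, with every CharmeKO library below every WT library and a log2 fold change of -0.53 (edgeR adjusted p = 0.0393). On the other side, Nmnat1 did not pass the test (log2 fold change 0.33, edgeR adjusted p = 0.676). Masp2, 11 genes before, had 2, 3 and 1 counts in WT and 50, 63 and 74 counts in CharmeKO.

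A further 5 called genes of this stretch, Zfp990, Znf41-ps, Zfp991, Zfp985 and Zfp979, were 36 to 49 genes before Rbp7 and belong to a cluster of closely related zinc-finger genes, for which the division of reads among copies is uncertain. Zfp979 had 18.5, 19.3 and 18.6 CPM in WT and 65.8, 91.5 and 50.7 CPM in CharmeKO (log2 fold change 1.88, edgeR adjusted p = 0.000402). Zfp990 had 0, 0 and 1 counts in WT and 197, 134 and 129 counts in CharmeKO. Znf41-ps and Zfp991 moved the other way, with 92, 43 and 16 counts of Znf41-ps in WT against 3, 3 and 1 in CharmeKO. The share of this stretch in the difference of Rbp7 was not tested.

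**Figure D5:**
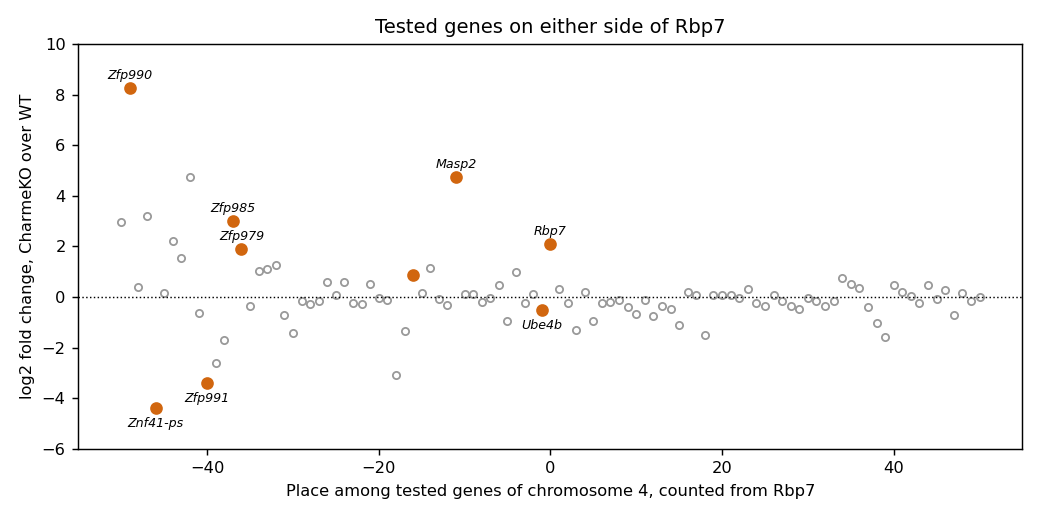
Fitted log2 fold change of CharmeKO over WT for Rbp7 and the 50 tested genes on each side of it on chromosome 4, plotted by place in the gene order and not by distance, with genes passing edgeR's test in orange and those described in the text named. The 8 called neighbours all lie on the left, and the fitted values of genes with almost no counts in one group, such as Zfp990 and Masp2, depend on the prior count and are not measures of size.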

How the data were processed

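Native CFs of 3 WT and 3 CharmeKO samples were analysed. Per the methods, the authors aligned reads with STAR to GRCm39 and counted them per gene, with the reverse strand setting, on an Ensembl annotation to which Charme had been added, and the deposited values are these raw counts, without normalization or filter. The submitters' processing notes list GRCm39 and also GRCh38. Cultured CFs were not analysed here.

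A gene was tested where 2 or more libraries held 10 or more counts. CPM were scaled by TMM, and CharmeKO was compared with WT by the quasi-likelihood test of edgeR 4.0.16 in R 4.3.3, without covariates, on all 15789 genes, with Benjamini-Hochberg adjustment and a threshold of 0.05. Standard errors and 95% intervals were derived from the F statistics. The common dispersion was 0.041. DESeq2 1.42.0 was the alternative tool. The scripts were tested on simulated data. Ratios to the endothelial markers used log2(CPM + 1), those of member pairs log2 of the CPM ratio, and both used exact two-sided permutation tests. Lengths and gene order came from GENCODE M21 on GRCm38, where 99.8% of the tested genes were found, so no coordinates of genes are given. Promoter windows were RefSeq sequences of GRCm38.p6 and matched 4 of 9 members by symbol. By blastn 2.17.0 no member had a copy aligned over at least 50% of its longest transcript at 97% identity or more. A copy of a shorter transcript could fall below that limit. For Fabp5, Gm6166 and Gm14328 aligned over 5.4% and 4.88%, with 81 and 6 counts in all libraries against 20263 for Fabp5. No library was a duplicate of another. Figures were drawn with matplotlib 3.10.9.

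The members, the lists and the motifs were chosen with earlier results of these data known. The rule for the genes named took all 9 members, the genes of each list that passed the test with its 3 most expressed, and for each member the 3 genes nearest in course over the libraries. Other genes, namely the marker genes, the chromosome 4 neighbours of Rbp7 and further list genes, were named after their values were seen. A few genes that these rules take are not reported here.

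The alternatives were DESeq2, DESeq2's size factors, upper-quartile normalization, filterByExpr, filters of 1 count in any library and of 10 counts in 5 libraries, the replicate number as a block, hemoglobin genes left out, a covariate from Xist against Y-linked transcripts, the longest transcript as length, and each library left out. For the endothelial ratios they were Cdh5 and Pecam1 as the markers, the median of the markers and a pseudocount of 0.1 CPM, and for the marker sums, scaling by library totals. After the data were seen, the ratios of 5 member pairs were added, with each library left out.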

Additional observations from a re-analysis of the deposited data

How the results depend on the processing

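Rbp7 kept its direction and its call under every alternative, with log2 fold changes of 1.91 to 2.33. DESeq2 called 394 genes, 2.5% of those tested (154 higher, 240 lower). Among them were 2 members, both higher, Cd36 being added at 0.61, and 6 genes of the lipid lists (1 higher, 5 lower). With a filter of 1 count in any library, edgeR called 699 of the 24579 genes with any count (253 higher, 446 lower). Among them were 2 members, both higher, again with Cd36 (0.62, adjusted p 0.00687), and 5 list genes (2 higher, 3 lower). With 10 counts in 5 libraries 42 genes were called higher. It was not settled whether equal replicate numbers mark paired samples, and the main test did not pair them. Deviations of same-numbered samples correlated at 0.216, 0.053 and 0.161, and those of unlike-numbered samples at -0.223 to 0.039. Every sample correlated best with its own number. With a replicate block, 302 of the 15789 tested genes were called (115 higher, 187 lower). Among them were 1 member and 2 list genes, Fabp3 being added as the 1 higher, and no member's call changed. Leaving out 1 library gave 61 to 349 called genes (35 to 131 higher, 26 to 218 lower), the lowest without CharmeKO replicate 1 and the highest without WT replicate 2, with 1 called member throughout, 1 to 2 list genes (0 to 1 higher) and a member median of 0.042 to 0.369 on the log2 scale. How many genes were tested without each library is not given here, so these counts have no share beside them. Signs turned in members near 0 when 1 library was left out, with ranges of -0.163 to 0.348 for Lpl, -0.299 to 0.072 for Gpihbp1, -0.137 to 0.075 for Fabp5, -0.031 to 0.297 for Tcf15 and -0.010 to 0.418 for Pparg. The range of Meox2 was 0.115 to 0.369. With the Xist and Y-linked term Fabp5 was at 0.011, Cd36 at 0.532 (edgeR adjusted p 0.393) and the member median at 0.225. With the longest transcript 5 of 9 members kept their place in the order of levels. The count of members above WT beside the endothelial markers was 2 in place of 3 with the median of the markers, where Fabp4 overlapped. It was 4 without WT replicate 1, where Meox2 was added. No share of all tested genes was computed for these counts. The causes of these changes were not tested. The shallowest library, WT replicate 3 at 9595701 counts, sets the precision for low genes, and 3 libraries a group cannot give an exact p below 0.1.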
